A study of Mus musculus with 9 samples.

Results

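Skeletal muscle is built of muscle fibers, but other cell types live between them, and 34 genes that are commonly used to mark those cell types are described here in muscle tissue and in cultured muscle cells. They comprise 7 markers of endothelium, 5 of mural cells, 6 of fibroadipogenic cells, 2 of tendon, 4 of adipocytes, 6 of macrophages and lymphocytes, 2 of Schwann cells and 2 of blood. The genes were chosen by cell type and by no threshold on measured values, and each symbol was matched to an Ensembl identifier. All 34 were found in the count files, which list 38293 genes for muscle tissue and 46078 for cultured cells. Another 60 genes of the same cell types, with Cd34 in 2 of the lists, were read beside them.

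RNA sequencing was performed on GAS, the gastrocnemius muscle of mouse (3 biological replicates), and on mouse primary muscle cells, with the strain labelled C57BL/6 for all. According to the methods of the study, the muscles came from female mice aged between 8 and 12 weeks. MB are primary myoblasts, kept on Matrigel in growth medium that held 20% FBS, 10% horse serum and bFGF at 10 ng/ml (2 control replicates, and 2 given 10 mM sodium-L-lactate in PBS, where controls received PBS alone). MT are the myotubes into which they fuse, taken after 3 days in medium with 2% horse serum (2 replicates).

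Endothelial cells line the capillaries that run along each fiber, and mural cells, the pericytes and smooth muscle cells, wrap these vessels from outside. Fibroadipogenic progenitors are stromal cells that deposit extracellular matrix and can turn into fat cells, whereas tendon cells, adipocytes, resident macrophages, the Schwann cells of the nerve and the red cells in the vessels can all be part of a muscle sample. Primary myoblasts are isolated from such tissue and grown away from vessels and nerves.

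Between 19307793 and 19941574 reads per GAS library were counted on genes, and between 5198247 and 10839516 per library of cultured cells. Levels are given as CPM, the counts scaled to a common library size with TMM factors for composition, and as RPKM, the CPM divided by the exonic length in kb, where genes are compared with each other. A count of 3 in a library, taken as the limit of detection, corresponds to between 0.152 and 0.156 CPM in GAS and between 0.223 and 0.533 CPM in cultured cells, and covers counting error only. One library stood apart: MT replicate 1 had counts for 28599 genes, against 17965 in MT replicate 2, and 8918 genes were counted in it alone among the cultured libraries, with 1.23% of its counts. Muscle genes followed the labels of the cultures, with the satellite cell gene Pax7 lower in MT than in MB (log2FC -4.11 with an SE of 0.65, adjusted p = 0.00224, edgeR) and Myog, Acta1, Ckm and Mb higher, by between 3.81 and 9.44 on the log2 scale. The muscle genes Myf5, Myod1 and Des had a log2FC of -0.999, -1.93 and 2.05, with an adjusted p of 0.280, 0.0528 and 0.0794 (edgeR). Poly(A) RNA was sequenced from GAS, whereas the cultures were prepared by Smart-seq2, so tissue and protocol cannot be told apart and no test was made between them.

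The blood markers are genes of hemoglobin, which has a pair of nearly identical gene copies for each chain, and the sequences show what a read can and cannot tell. For alpha globin, Hba-a1 and Hba-a2, the middle exon is 205 bases long and differs at 0 positions between the copies, at chr11:32283924-32284128 and chr11:32296741-32296945, both on the plus strand of mm10. For beta globin, Hbb-bs and Hbb-bt, it is 223 bases long with 0 differences, at chr7:103827448-103827670 and chr7:103813439-103813661, both on the minus strand. All sequences are from GENCODE M21.
Hba-a1 and Hba-a2, middle exon: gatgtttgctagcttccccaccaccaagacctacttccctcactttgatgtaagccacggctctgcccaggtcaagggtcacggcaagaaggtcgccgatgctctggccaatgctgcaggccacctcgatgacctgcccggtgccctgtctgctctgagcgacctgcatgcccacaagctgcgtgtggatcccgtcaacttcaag
Hbb-bs and Hbb-bt, middle exon: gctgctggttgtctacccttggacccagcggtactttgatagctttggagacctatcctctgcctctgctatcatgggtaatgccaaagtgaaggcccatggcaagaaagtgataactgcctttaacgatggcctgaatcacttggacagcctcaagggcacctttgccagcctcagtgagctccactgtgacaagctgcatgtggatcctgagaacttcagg

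Over the whole coding sequence, each pair of copies differed at 1 base, of 426 in alpha globin and of 441 in beta globin, an identity of 99.8% in both. The 41 coding bases around that position are shown for each copy, with the differing base in capitals, at position 381 of the alpha globin and position 417 of the beta globin coding sequence, counted from 1 at the first base of the start codon.
Hba-a1, chr11:32284323-32284363, plus strand: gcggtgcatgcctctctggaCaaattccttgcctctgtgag
Hba-a2, chr11:32297140-32297180, plus strand: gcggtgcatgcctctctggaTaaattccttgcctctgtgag
Hbb-bs, chr7:103826672-103826712, minus strand: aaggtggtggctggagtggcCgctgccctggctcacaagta
Hbb-bt, chr7:103812663-103812703, minus strand: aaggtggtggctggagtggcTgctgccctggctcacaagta
The longest coding run without a difference was 380 bases in alpha and 416 bases in beta globin, so the division of reads between the copies is uncertain, and how reads with several alignments were counted is not given in the sources used here. If such reads were dropped, the sum of the copies is too low as well, by the same rule in every library.

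In GAS, markers of each vessel, stromal, fat and blood list were detected at levels that differed between the lists. A mean RPKM over 1 was found for 27 of the 34 markers, beside 42.4% of all protein-coding genes. Of the other 7, Cspg4, Adgre1, S100b, Sox10, Ptprc and Lep had a mean RPKM between 0.142 and 0.791, and Cd3e had no count in any GAS library. Over 3 counts in every GAS library were found for 32 markers, beside 59.7% of protein-coding genes, and the exceptions were Cd3e and the fat hormone gene Lep, with 3, 13 and 12 counts. In bulk RNA, fewer cells of a type and less RNA per cell cannot be told apart, here and in every comparison that follows. The plot of RPKM by library shows all 34 markers in all 9 libraries.

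**Figure D1:**
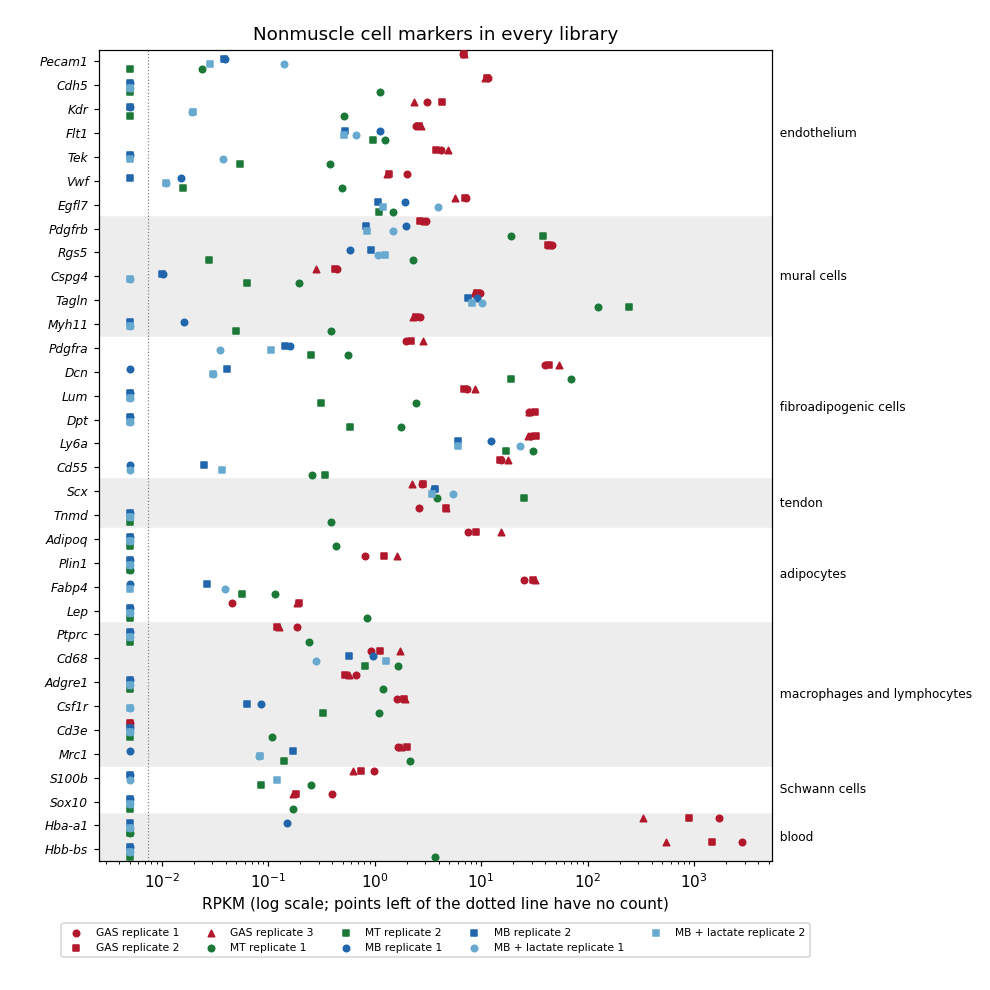
RPKM (log scale) of the 34 markers, grouped by cell type, in each library, with color for the group and shape for the replicate. GAS libraries lie to the right for most markers, MT libraries lie to the right of GAS for Pdgfrb and Tagln, and points left of the dotted line have no count.

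Endothelial markers summed to an RPKM of 37.5, 37.3 and 34.6 in GAS replicates 1, 2 and 3, or 36.5 ± 1.60 (SD, n = 3), and all 7 had a mean over 1. Cdh5, the adhesion protein of endothelial junctions, had the highest RPKM of the list, with 11.7, 11.4 and 10.8. Pecam1, another junction protein, was found at 6.79, 6.85 and 6.94, and the secreted factor Egfl7 at 7.24, 7.08 and 5.70. These 3 genes lay above the rest of the list in every replicate. The angiopoietin receptor Tek was found at 4.19, 3.76 and 4.88, and the VEGF receptors Kdr and Flt1 at 3.10, 4.27 and 2.33 and at 2.44, 2.61 and 2.74. The clotting factor Vwf, which is richer in larger vessels, had the lowest mean of the list, with 2.03, 1.35 and 1.29. Kdr overlapped in its range with Flt1 and with Tek, so their order is not fixed by 3 replicates.

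Mural cell markers summed to an RPKM of 61.9, 57.2 and 57.7 (58.9 ± 2.57), and Rgs5 alone, a regulator of G protein signaling that marks pericytes, gave 45.9, 42.5 and 43.7 of it. Rgs5 was about level with Dcn as the highest of the 34 markers outside blood. The actin-binding protein Tagln was found at 9.86, 9.22 and 8.56, the PDGF receptor Pdgfrb at 3.00, 2.66 and 2.89, and the smooth muscle myosin Myh11 at 2.66, 2.45 and 2.29. Cspg4, the NG2 proteoglycan of pericytes, stayed under 1 in each replicate, with 0.447, 0.420 and 0.283.

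Fibroadipogenic markers had the highest sum outside blood, with 122, 132 and 139 (131 ± 8.46). The matrix proteoglycan Dcn was found at 39.4, 43.6 and 53.7, the surface protein Ly6a, known as Sca-1, at 29.7, 32.6 and 27.4, and the matrix protein Dpt at 28.4, 32.1 and 28.5. Ly6a and Dpt overlapped in their ranges, and Dcn was above both in every replicate. The complement regulator Cd55 was found at 15.5, 15.2 and 17.8, the proteoglycan Lum at 7.30, 6.93 and 8.74, and the PDGF receptor Pdgfra, which defines these cells, at 1.97, 2.18 and 2.83.

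The tendon markers Scx, a transcription factor, and Tnmd, a membrane protein of mature tendon cells, were low, with an RPKM of 2.81, 2.85 and 2.25 for Scx and of 2.63, 4.68 and 4.72 for Tnmd. Replicate 1 was the lowest for Tnmd, and also for the further tendon genes Fmod (10.6, 15.0 and 17.3), Comp (0.856, 1.72 and 1.61), Thbs4 (with 13.3 and 12.9 in replicates 2 and 3) and Chad (2.30, 2.35 and 3.71), but not for Scx. Markers of macrophages and lymphocytes summed to 5.06, 5.71 and 6.13 (5.63 ± 0.539). The 15 further genes of these cells, among them the lysozyme gene Lyz2 (24.0, 28.1 and 24.5) and the complement gene C1qa (7.81, 11.9 and 7.94), summed to 44.9, 56.4 and 46.1, so that the sum depended on which genes were listed. The receptors Mrc1 and Csf1r of macrophages were found at 1.64, 2.03 and 1.77 and at 1.63, 1.89 and 1.92, and the lysosomal protein Cd68 at 0.929, 1.13 and 1.73. The macrophage protein Adgre1 had 0.674, 0.532 and 0.577, and Ptprc, which all white blood cells carry, 0.189, 0.122 and 0.128. The T cell receptor subunit gene Cd3e was at 0 counts, which at this depth allows up to 0.156 CPM, so T cells were not detectable by this gene. Schwann cell markers were also low, with an RPKM of 0.992, 0.751 and 0.630 for the calcium-binding protein S100b and of 0.399, 0.183 and 0.170 for the transcription factor Sox10.

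Adipocyte markers summed to an RPKM of 33.6, 41.4 and 49.1 (41.4 ± 7.73), most of it from Fabp4. Adipoq, the hormone adiponectin, had an RPKM of 7.57, 9.02 and 15.5 in replicates 1, 2 and 3, and the lipid droplet protein Plin1 had 0.808, 1.22 and 1.63. The fatty acid carrier Fabp4, which capillary endothelium also makes, had 25.2, 31.0 and 31.7. Replicate 3 was the highest and replicate 1 the lowest for these 3 genes, and Lep was near the limit of detection.

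Blood markers had by far the highest levels and the widest spread. Hba-a1, the alpha chain of hemoglobin, had an RPKM of 1714, 899 and 332 in replicates 1, 2 and 3, and Hbb-bs, the beta chain, had 2791, 1479 and 544. Replicate 1 was the highest and replicate 3 the lowest for both, with a summed RPKM that differed 5.14-fold between them. The mean sum of 2587 was 1627 without replicate 1 and 3442 without replicate 3. The same order was found for the copies whose sequences are shown above, Hba-a2 with 1428, 799.9 and 254 and Hbb-bt with 958, 520 and 187, so that all 4 globin genes together took 0.510%, 0.283% and 0.0978% of the counts. Alas2, the heme synthesis enzyme of red cell precursors, followed with 21.3, 12.3 and 3.87.

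These lists were set beside all 9874 genes with a mean RPKM over 1 in GAS. The highest replicate was over 2 times the lowest for 4 of the 27 markers, Hba-a1, Hbb-bs, Adipoq and Plin1, and for 3.42% of all genes. The median coefficient of variation was 12.5% over the 27 markers and 7.40% over all genes. Replicate 3 was the highest for 3 of 3 adipocyte markers and for 5 of 6 further adipocyte genes, beside 36.7% of all genes. Replicate 1 was the highest for 2 of 2 blood markers and 3 of 3 further blood genes, beside 29.6% of all genes. It was also the highest for 4 of 4 mural markers, 4 of 6 further mural genes and 3 of 3 further Schwann cell genes. The mural markers differed little between replicates, with a median coefficient of variation of 6.56%, under that of all genes. Replicate 1 was thus the highest in blood markers and the lowest in adipocyte markers, and replicate 3 the reverse, as the plot of replicate spread shows. The further adipocyte genes were divided over the lowest replicate. It was replicate 1 for Cidec, Cfd and Lipe and replicate 2 for Retn, Plin4 and Car3, and Car3 was the highest in replicate 1. Genes of one list are not independent replicates, and what set these differences was not tested.

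**Figure D2:**
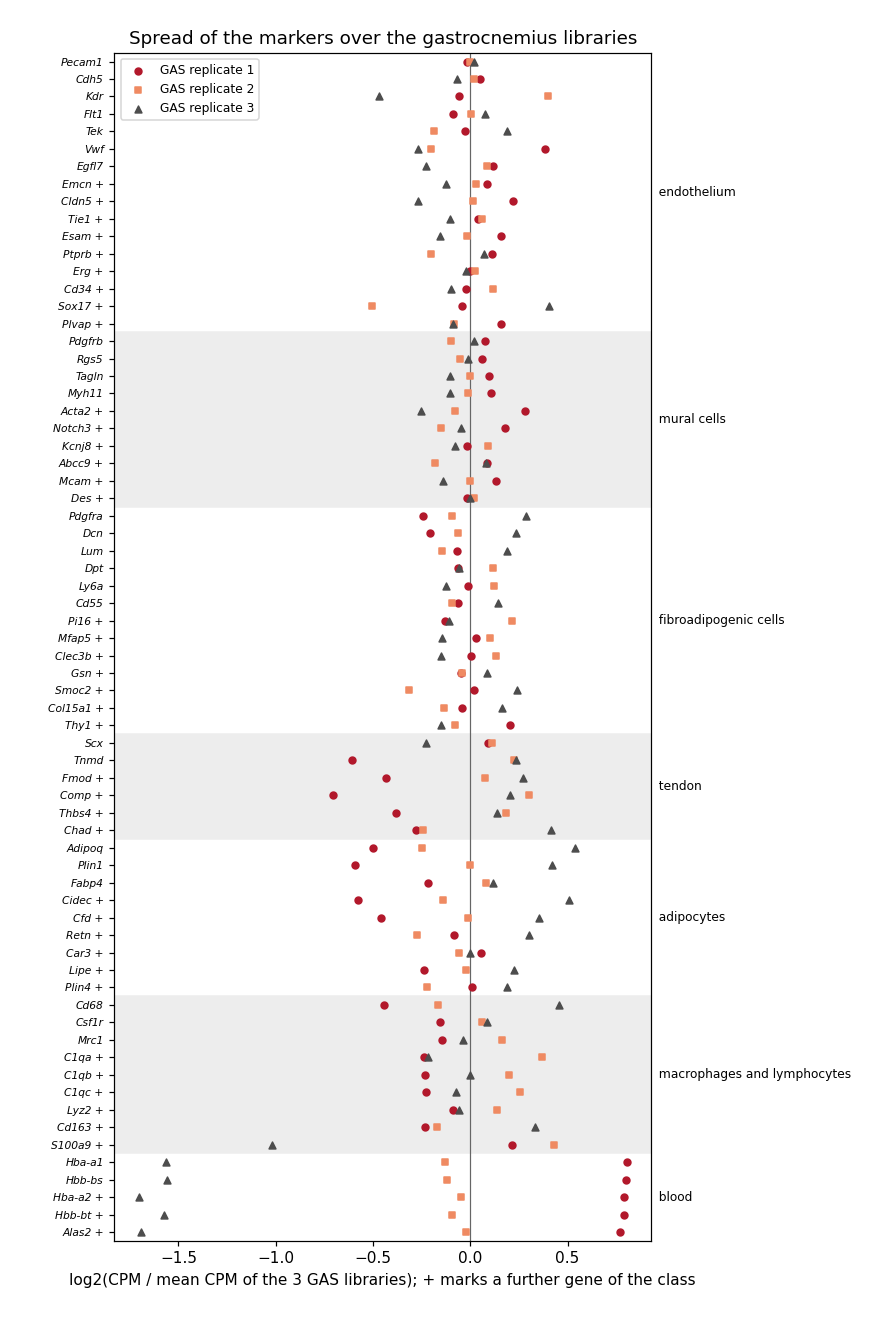
Level of the markers and further genes (+) with a mean RPKM over 1 in each GAS library, as log2 of its CPM over the mean of the 3 GAS libraries, grouped by cell type, without Schwann cell genes. The 5 blood genes spread most, with replicate 1 at the right and replicate 3 at the left, and the adipocyte markers Adipoq, Plin1 and Fabp4 lie in the opposite order.

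In MB, few of the markers were detected. Over 3 counts in both control libraries were found for 9 of 34 markers, Flt1, Egfl7, Pdgfrb, Rgs5, Tagln, Pdgfra, Ly6a, Scx and Cd68, beside 51.6% of all protein-coding genes. No count in either library was found for 15 markers. These were Cdh5, Kdr and Tek of endothelium, Lum and Dpt of fibroadipogenic cells, Tnmd, Adipoq, Plin1 and Lep, the white blood cell genes Ptprc, Adgre1 and Cd3e, both Schwann cell markers, and Hbb-bs. Pecam1 had 2 counts in each MB library.

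The markers that were detected in MB came from several lists, beside other markers of the same lists that were not. Among endothelial genes, Flt1 had 15.1 and 7.11 CPM and Egfl7 had 6.86 and 3.86, whereas Cdh5 and Kdr were at 0. Among mural genes, Tagln had 18.1 and 14.9 CPM, Pdgfrb 10.8 and 4.58 and Rgs5 2.70 and 4.22, whereas Myh11 had 1 and 0 counts. Ly6a of the fibroadipogenic list had 14.9 and 7.23 CPM, and Pdgfra 1.59 and 1.45, beside 0 and 2 counts of Dcn. Scx had 7.23 and 7.47 CPM beside 0 counts of Tnmd. Which cells of a culture held this RNA cannot be read from bulk counts. Among further genes named after their values were seen, Acta2, the smooth muscle actin that cultured skeletal myoblasts are also known to make, had an RPKM of 207 and 127 in MB and of 12.5, 9.68 and 8.58 in GAS, and Cd34, a surface protein of endothelium, stromal cells and muscle stem cells, had 4.52 and 3.03 in MB and 6.46, 7.11 and 6.12 in GAS.

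Scx lies whole, over 2007 bases, within Bop1, a ribosome biogenesis gene on the opposite strand, and shares 0 exonic bases with it. Bop1 had 340 and 192 CPM in MB, 71.4 and 153 in MT and between 24.9 and 28.7 in GAS. Whether counting used strand is not given in the sources used here, so reads of unspliced Bop1 RNA over Scx cannot be told apart from those of Scx. Tagln shares 1241 of its 1988 exonic bases with an antisense gene, Gm48529, that is not in the list of counted genes, and 108 with Pcsk7 on the opposite strand, which had 27.0 and 21.3 CPM in MB and 23.4 and 34.3 in MT. Csf1r shares 873 exonic bases with Hmgxb3 on the opposite strand, which had 74.8 and 47.4 CPM in MB and 26.1 and 44.1 in MT.

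In MT, over 3 counts in both libraries were found for 15 of 34 markers, beside 56.7% of all protein-coding genes. They were the MB markers other than Rgs5, together with Cspg4, Dcn, Lum, Dpt, Cd55, Csf1r and Mrc1. The libraries differed in this, with 31 markers over 3 counts in MT replicate 1 and 15 in MT replicate 2, beside 77.3% and 57.1% of protein-coding genes. The plot of MT libraries shows that nearly all low markers lie above the diagonal, with more counts in replicate 1. When every cultured library was thinned to the smallest total, 13 markers were over 3 counts in both MT libraries, beside 54.6% of protein-coding genes. Without thinning, 10 markers were over 10 counts in both, beside 52.2%.

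Of the 34 markers, 11 had no count in MT replicate 2 or in either MB library, and 10 of them had over 3 counts in MT replicate 1. Among all 6850 protein-coding genes without a count in those libraries, the share was 39.9%. MT replicate 1 held 64 counts of Cdh5, 62 of Kdr, 60 of Ptprc, 52 of Adgre1, 38 of Lep, 38 of Hbb-bs, 8 of Adipoq, 7 of Tnmd, 7 of Sox10 and 6 of Cd3e, and 0 of Plin1. None of these 10 is a mural or fibroadipogenic marker. Markers of all 8 lists were counted in this library, those of mural and fibroadipogenic cells in other cultured libraries as well. Per kb of exon, the counts of these 10 markers had a median of 6.33 and ranged from 1.47 to 49.5. All protein-coding genes over 3 counts in it, and without a count in MT replicate 2 or control MB, had a median of 6.31, with quartiles of 3.00 and 12.4. Lep reached 2.83 CPM in this library, against 0.152, 0.658 and 0.623 in GAS, and Cd3e was counted in it although it had no count in muscle tissue. Genes of one cell type differed in it, with 2 counts of Pecam1 beside 64 of Cdh5, 16 of C1qa and 79 of the macrophage receptor gene Cd163 beside 0 of C1qb and C1qc, and 38 of Hbb-bs and 34 of Hbb-bt beside 0 of Hba-a1. What gave this library its additional genes was not tested.

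**Figure D3:**
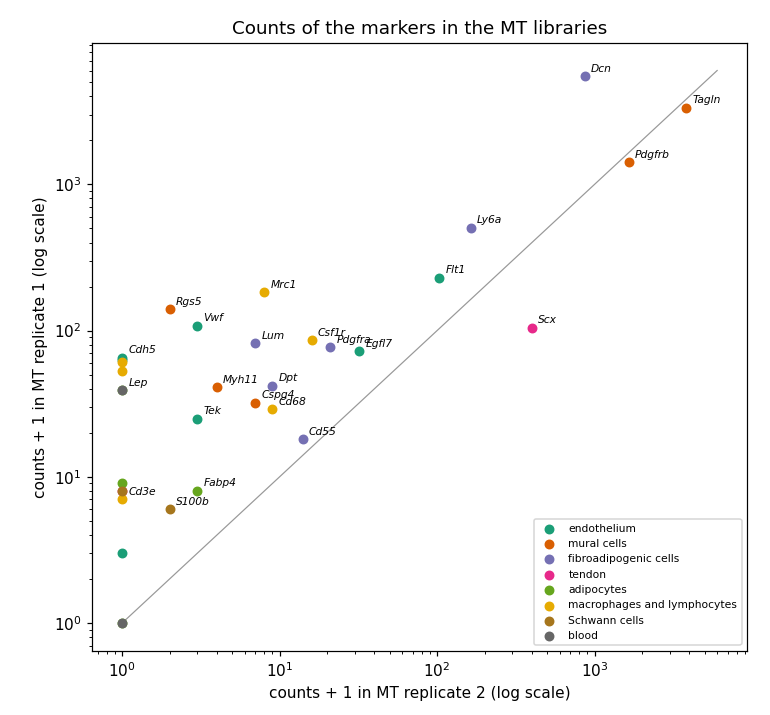
Counts + 1 of the 34 markers in MT replicate 1 against MT replicate 2 (both log scales), colored by cell type, with the line of equal counts. Only Scx, Pdgfrb and Tagln have more counts in replicate 2, and markers at the left edge have no count there and up to 64 in replicate 1.

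The comparison of MT with MB asks which genes change as myoblasts differentiate. Of the 34 markers, 11 passed edgeR's filter on low counts, 4 were higher in MT, 0 were lower and 7 were not called at an adjusted p under 0.05 and an absolute log2FC over 0.5. Among all 12921 genes tested, 11.0% were higher and 6.86% were lower. Cd55, Csf1r and Dcn had at most 4 counts in an MB library and passed the filter through MT, so that the counts of 4 and 0 are in part set by the filter and are no summary of all 34. The replicates are labelled as biological. The p-values rest on the spread between these 2 libraries per group, which edgeR draws for each gene towards that of all genes.

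Pdgfrb, the receptor through which PDGF-B recruits mural cells, had 10.8 and 4.58 CPM in MB and 105 and 210 in MT, without overlap. It was higher in MT by a log2FC of 4.30 with an SE of 0.61 (adjusted p = 0.00126, edgeR). Tagln, which binds actin in smooth muscle cells and in other contractile cells, had 18.1 and 14.9 CPM in MB and 249 and 484 in MT (log2FC 4.44, SE 0.54, adjusted p = 0.000488, edgeR). Both genes had more reads in MT replicate 2 than in replicate 1, the reverse of the low markers.

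Dcn, the matrix proteoglycan decorin, had 0 and 2 counts in MB and 5484 and 867 in MT, or 408 and 110 CPM. With 2 counts in all in MB, the ratio of MT to MB was 2454, with a 95% counting interval from 679 to 20270 (log2FC 10.97, SE 1.10, adjusted p = 0.000174, edgeR). The mean of Dcn in MT was 0.975 times that of GAS when GAS and cultures were normalized separately and 0.524 times when they were normalized together. With separate normalization the GAS libraries had 230, 254 and 314 CPM, below MT replicate 1 and above MT replicate 2. Cd55 had 0 and 1 counts in MB and 17 and 13 in MT, a ratio of 23.2 with an interval from 3.85 to 946 (log2FC 4.32, SE 1.28, adjusted p = 0.0412, edgeR). Its adjusted p was 0.123 with DESeq2 and 0.612 without a filter on low counts, and leaving out MT replicate 2, MB replicate 1 or MB replicate 2 gave 0.206, 0.802 and 0.635 (edgeR), so that its call was lost in each of these. Lum had 0 counts in MB and 81 and 6 in MT, and Dpt 0 in MB and 41 and 8 in MT, and both were below the filter. Against a floor of 3 counts in each MB library, Lum was at least 9.24-fold and Dpt at least 5.54-fold higher in MT, mostly by the counts of replicate 1.

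Among the markers not called, Csf1r, the receptor for the macrophage growth factor CSF1, had 4 and 3 counts in MB and 85 and 15 in MT (log2FC 3.28, SE 1.03, adjusted p = 0.0506, edgeR). With DESeq2 its adjusted p was 0.0321, and with edgeR it was 0.522 without MT replicate 1 and 0.0209 without MT replicate 2. Csf1r starts 15536 bases after the end of Pdgfrb, on the same strand of chromosome 18. Scx had 7.23 and 7.47 CPM in MB and 7.67 and 50.5 in MT, so that 1 of the MT libraries stayed at the level of MB (log2FC 1.92, SE 0.76, adjusted p = 0.106, edgeR). The log2FC of Scx was 2.71 without MT replicate 1 and -0.037 without MT replicate 2, and its adjusted p was 0.0488 with DESeq2, 0.0138 without MB replicate 1 and 0.0122 without MB replicate 2 (edgeR). Ly6a had 14.9 and 7.23 CPM in MB and 37.4 and 20.7 in MT, without overlap (log2FC 1.39, SE 0.60, adjusted p = 0.140, edgeR, and 0.00933 without MB replicate 1). Pdgfra had 1.59 and 1.45 CPM in MB and 5.66 and 2.54 in MT (log2FC 1.46, SE 0.86, adjusted p = 0.270, edgeR).

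Rgs5 had 2.70 and 4.22 CPM in MB and 10.3 and 0.127 in MT, that is 139 counts in replicate 1 and 1 count in replicate 2, and the MT libraries lay on both sides of MB (log2FC 0.71, SE 1.22). The endothelial genes Flt1 and Egfl7 differed by less than their SE, with a log2FC of 0.42 (SE 0.60) and of -0.22 (SE 0.73), and their MT and MB libraries overlapped. Of the other mural markers, both below the filter, Myh11 had 1 and 0 counts in MB and 40 and 3 in MT, and Cspg4 had 1 and 1 in MB and 31 and 6 in MT, a ratio of 14.3 with an interval from 3.69 to 122.

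The library that stood apart bears on these counts. Without MT replicate 2, genes with no count in MB passed the filter through MT replicate 1 alone, and 18831 genes were tested against 12921. Such genes could be called higher or not called, but never lower, and the spread was taken from MB. Without MT replicate 1, 4 markers were called higher in MT, Pdgfrb, Tagln, Dcn and Scx, beside 7.34% of all genes tested. Without MT replicate 2, so that MT rested on replicate 1, 15 markers were called higher, beside 21.9% of all genes tested. Where at least 10 counts in every library were required, 2 markers were called higher, Pdgfrb and Tagln, beside 7.19% of genes, since Dcn and Cd55 could not be tested.

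**Figure D4:**
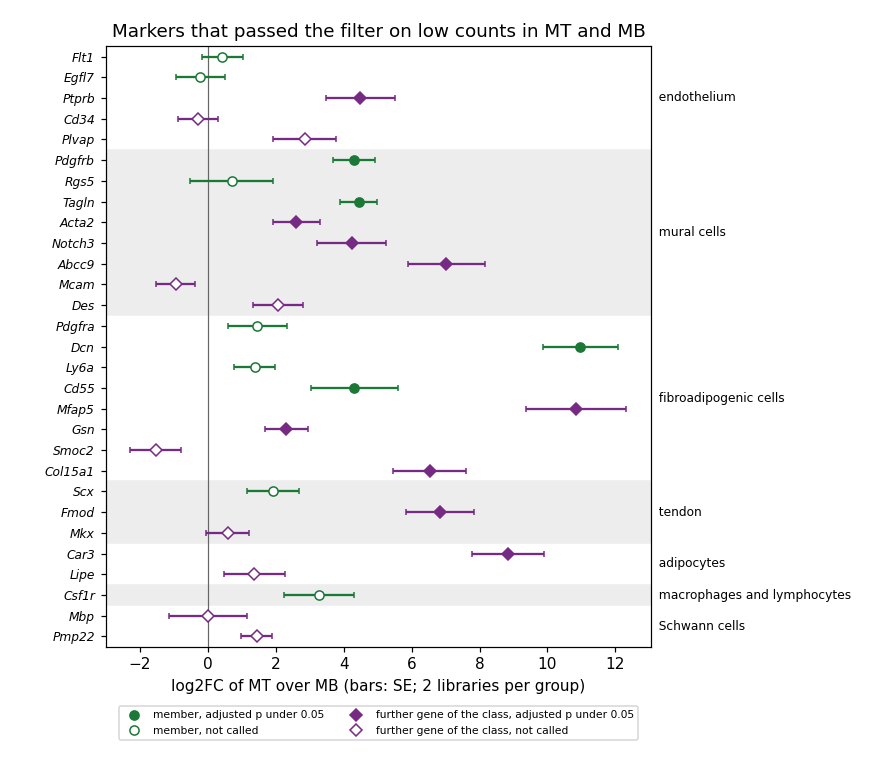
log2FC of MT over MB for the 11 markers (circles) and the further genes (diamonds) that passed the filter on low counts, with SE bars and 2 libraries per group, filled where the gene was called by edgeR. Dcn and Mfap5 have the largest values, and Flt1, Egfl7, Rgs5, Cd34, Mkx and Mbp lie within 1 SE of 0.

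Of the 60 further genes, 18 were tested, 9 were higher in MT and 0 were lower, beside 11.0% higher and 6.86% lower of all genes tested. Of these 9, Mfap5, Abcc9, Col15a1, Fmod, Car3 and Ptprb had at most 4 counts in an MB library and passed the filter through MT. Notch3, with 27 and 1 counts in MB, also passed only with the counts of MT. The split in direction is thus in part set by the filter. Among mural genes, Notch3, the receptor that maintains smooth muscle cells, had an RPKM of 0.409 and 0.0149 in MB and of 2.57 and 5.97 in MT (log2FC 4.24, SE 1.01, adjusted p = 0.0166, edgeR). Acta2 had 207 and 127 in MB and 539 and 1563 in MT (log2FC 2.60, SE 0.69, adjusted p = 0.0262, edgeR), a call that was lost without MT replicate 2 (0.116) or MB replicate 2 (0.0627). Abcc9, a potassium channel subunit of pericytes and of muscle fibers, had 0 and 1 counts in MB and 106 and 89 in MT, against an RPKM of 42.4, 35.2 and 42.3 in GAS. Kcnj8, its channel partner in pericytes, named after its values were seen, had 1 and 0 counts in MT. Mcam of the mural list, named in the same way, had 490 and 202 counts in MB and 223 and 228 in MT (log2FC -0.94, SE 0.57, not called).

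Matrix genes were among the others called. Mfap5, a microfibril protein, had 0 counts in MB and 505 and 77 in MT, at least 64.5-fold higher. Col15a1, a basement membrane collagen, had 2 and 0 counts in MB and 161 and 104 in MT, and Fmod, a proteoglycan of tendon, 0 and 2 in MB and 190 and 129 in MT. Their ratios of MT to MB were 102, with an interval from 28.1 to 850, and 123, with an interval from 33.8 to 1022. Gsn, a protein that severs actin filaments in many cell types, was higher with a log2FC of 2.31 (SE 0.63, adjusted p = 0.0299, edgeR), a call that was lost without MT replicate 1 (0.0867) or MB replicate 2 (0.141). Clec3b and Thy1, stromal genes named after their values were seen, had 1 and 1 and 1 and 0 counts in MT, against an RPKM of 41.4, 45.3 and 37.1 and of 2.86, 2.35 and 2.24 in GAS. Smoc2 of the same list, named in the same way, was counted in both cultures. It had 145 and 709 counts in MB and 336 and 64 in MT (log2FC -1.54, SE 0.74, not called).

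Car3 of the adipocyte list is a carbonic anhydrase that muscle fibers also make, and it had 0 and 3 counts in MB and 447 and 1178 in MT. The other further adipocyte genes, named after their values were seen, were not alike. Cidec, Cfd, Retn and Pparg had between 0 and 9 counts in each MT library, Lipe had 28 and 7 in MB and 97 and 31 in MT (not called), and the lipid droplet gene Plin4 had 2 and 0 in MB and 116 and 8 in MT, mostly in replicate 1. Ptprb, a phosphatase of endothelium, had 4 and 2 counts in MB and 169 and 31 in MT (log2FC 4.49, SE 1.02, adjusted p = 0.0131, edgeR), and without MT replicate 1 its adjusted p was 0.128. None of the 15 further genes of macrophages and lymphocytes and none of the 5 of blood passed the filter on low counts.

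Levels in GAS were above those of every MB and MT library for 22 of 34 markers, beside 17.0% of the 22535 genes compared on CPM. With GAS and cultures normalized together, there were 27, beside 24.8% of genes. This joint scaling raised GAS against MT by a median of 0.89 on the log2 scale over the markers, and against MB by 0.75. Without MT replicate 1 there were 29, beside 22.5%. As the protocols differ, these counts describe the libraries and not the tissue alone. The 22 markers of the first count were all 7 markers of endothelium, 3 of 5 mural markers, 4 of 6 fibroadipogenic markers, 3 of 4 adipocyte markers, both blood markers, and 1 each of tendon, white blood cells and Schwann cells.

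Pdgfrb, Tagln and Scx lay below every MT library in GAS. Mean CPM in MT was 20.0 times that of GAS for Tagln, 10.1 times for Pdgfrb and 5.50 times for Scx. MT replicate 1 alone gave 13.6, 6.74 and 1.45 times, and MT replicate 2 alone 26.4, 13.4 and 9.54 times, so that the value for Scx rests on replicate 2. With joint normalization these ratios were 10.7, 5.37 and 2.91, and MT replicate 1 no longer lay above GAS for Scx. In MB, Tagln had 0.903 times and Pdgfrb 0.492 times the mean CPM of GAS, and 0.537 and 0.292 times with joint normalization.

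Treatment with lactate was compared with control MB to ask whether lactate changes gene expression. Of the 34 markers, 8 were tested and 0 were called, and of all 11804 genes 0.0% were called at an adjusted p under 0.05 and 0.0% past the nominal threshold of p under 0.01 with an absolute log2FC over 0.5 (edgeR). At an unadjusted p under 0.05 there were 5 genes with edgeR's quasi-likelihood test, 11 with its likelihood ratio test and 3 with DESeq2. That is fewer genes than this threshold passes on average where nothing differs, so the p-values were conservative. Few calls could come from them, and the 0 calls do not show that lactate has no effect. Same-numbered control and lactate-treated libraries deviated alike, with a correlation across genes of 0.70. With the replicate number in the fit, 166 genes had an unadjusted p under 0.05 and 0 were called (edgeR). The study, at the same nominal threshold, reported a small set of changed genes. The log2FC of the 8 markers lay between -1.10 for Pdgfra (SE 0.95) and 0.72 for Egfl7 (SE 0.71). Tagln had 20.2 and 16.4 CPM with lactate and 18.1 and 14.9 without, and Pdgfrb 8.08 and 4.62 with lactate and 10.8 and 4.58 without. Ly6a had 27.8 and 7.29 with lactate and 14.9 and 7.23 without. In each of these 3 genes the libraries of both groups overlapped, and differences of the size of the SE were not detectable with 2 libraries per group. Over 3 counts in both lactate-treated libraries were found for 7 markers, the MB markers other than Pdgfra and Cd68, beside 50.3% of protein-coding genes. The 6 markers Flt1, Egfl7, Pdgfrb, Tagln, Ly6a and Scx were over this limit in all 6 cultured libraries, beside 49.0%.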

How the data were processed

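Raw counts per gene of 9 libraries were used as the authors deposited them. The authors trimmed reads with Trim Galore 0.6.6, aligned them to mm10 with HISAT2 2.2.1 and counted them with featureCounts of Subread 2.0.1; the annotation release and the handling of strand and of reads with several alignments are not given in the sources used here. Groups were taken from the sample labels. The 34 markers and the further lists were chosen with earlier results of these data known. All markers are named, and of the further genes those called in MT against MB, and any other further gene was named after its values were seen. Some of the further genes are not reported here.

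Gene names, coordinates and exonic lengths are from GENCODE M21. CPM used TMM factors computed within GAS and within the cultured libraries, and RPKM divided CPM by exonic length. Differences between MT and MB and between MB with and without lactate were tested by the quasi-likelihood test of edgeR 4.0.16 in R 4.3.3, with its filter on low counts, no replicate block and Benjamini-Hochberg adjustment over all genes tested, after a check on simulated data. SE is the absolute log2FC divided by the square root of F. Ratios on at most 3 counts have 95% Poisson intervals from pooled counts. Alternatives were RLE size factors, DESeq2 1.42.0, the likelihood ratio test, the replicate block, other filters, one fit of all 6 cultured libraries, leaving out the ribosomal RNA gene CT010467.1 or each replicate and, chosen after seeing the data, crossed replicate numbers.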

Additional observations from a re-analysis of the deposited data

How the results depend on the processing

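Requiring at least 10 counts in every library gave 766 genes and 2 markers higher in MT than in MB, since genes near 0 in MB could not be tested, and the likelihood ratio test gave 1343 genes lower. When each library was left out in turn, genes higher in MT ranged from 962 to 4118, markers higher from 4 to 15 and genes lower from 270 to 1570, and markers over 3 counts in MT ranged from 15 to 31, with the upper ends of the first, second and last without MT replicate 2. Leave-out values of the log2FC ranged from -0.16 to 1.04 for Flt1, from -0.72 to 0.22 for Egfl7, from -4.65 to 1.496 for Rgs5 and from -0.037 to 2.71 for Scx. For lactate, genes past the nominal threshold numbered 1 with DESeq2, 1 without a filter and 13 with the replicate block, and from 1 to 177 in the leave-outs, where 0 to 2 genes were called higher at the adjusted threshold and the log2FC of Egfl7 ranged from -0.31 to 1.32. Where a group was left with 1 library, its spread was taken from the other group. The cause of these shifts was not tested.

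Same-numbered MT and MB libraries deviated with a correlation across genes of -0.13, and lactate-treated and control MB libraries with 0.70. Replicate 1 was the richer in ribosomal RNA in control MB (9.20% against 0.385% of counts) and in lactate-treated MB (13.8% against 0.447%). In MT it was the poorer, with 0.131% against 0.575%. A difference shared by same-numbered libraries counts as spread within groups in the main fit for lactate. There, 5 genes had an unadjusted p under 0.05, against 166 with the replicate block (edgeR). With 2 pairs and no label that ties the numbers, the replicate block was kept as an alternative to the main fits. With it, 1447 genes were higher and 824 lower in MT, 3 markers were called (Cd55 with an adjusted p of 0.0709), the log2FC of Rgs5 was -0.73, and 0 markers were called for lactate. With crossed numbers, 1192 genes were higher and 867 lower, and Rgs5 was at -0.64. Among values of single genes, 13 lost and 9 gained their call under an alternative in the same direction. The summed level of the blood markers in GAS ranged from 1627 to 3442 when a replicate was left out.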
